A study of Mus musculus with 18 samples.

Results

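The genes described here are 9 brakes on inflammatory signalling and close companions of them, chosen by symbol: Tnfaip3, Tnip1, Zfp36, Zc3h12a, Irak3, Nfkbid, Traf1, Birc3 and Tnfaip2. They are 9 of 22485 genes with a symbol and 11 of 44397 features on the arrays, since Tnip1 and Tnfaip2 have 2 features each and the other genes 1. The cells were bone marrow derived macrophages of mice aged 8 to 10 weeks, grown for 7 days with 10 ng/ml M-CSF, the growth factor of the macrophage lineage. The 5 groups were Nrf2-/- cells under heme and LPS (5 arrays), Nrf2-/- cells under LPS (4 arrays), Nrf2+/+ cells under heme and LPS (3 arrays), Nrf2+/+ cells under LPS (3 arrays) and Nrf2+/+ cells under albumin (3 arrays). Heme was given as heme-albumin at 200 µM for 4 h with LPS at 10 ng/ml for 4 h after it, LPS alone for 4 h, and albumin without heme for 4 h. Albumin is not named for the arrays under LPS alone, although the treatment protocol speaks of albumin or heme-albumin before LPS, so time in culture and albumin may differ between these groups. Nrf2-/- cells had no group without LPS. Each array set 1 sample, in the red channel, against RNA of untreated macrophages in the green channel, and no label gives the genotype of that reference. Every value below is a log2 ratio to that reference, so a value of 1 is a doubling and 0 is the level of the reference. Such ratios are not levels, and the genes are not ranked against each other by them.

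LPS, the endotoxin of Gram-negative bacteria, is sensed by Toll-like receptor TLR4, which signals through IRAK kinases and TRAF ubiquitin ligases to the transcription factor NF-κB. NF-κB in turn switches on genes that end the response. Tnfaip3 encodes A20, which edits ubiquitin chains on signalling proteins, and Tnip1 encodes ABIN1, a ubiquitin-binding partner of A20. Zfp36 encodes tristetraprolin, which binds AU-rich elements of cytokine mRNAs and draws deadenylases to them, and Zc3h12a encodes the endoribonuclease regnase-1. Irak3 encodes IRAK-M, which holds back signalling at the receptor complex, and Nfkbid encodes IκBNS, a nuclear IκB protein. Traf1 and Birc3 encode the adaptor TRAF1 and the ubiquitin ligase cIAP2, which bind each other at TNF receptors. Tnfaip2 encodes a TNF-induced relative of exocyst subunits known for a part in membrane nanotubes, and it is not itself known as a brake. Heme is the iron-bearing group of hemoglobin, and NRF2, the factor missing in Nrf2-/- cells, is encoded by Nfe2l2 and switches on antioxidant genes through antioxidant response elements.

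Promoters were read from RefSeq (GRCm38.p6), from 250 bases before to 50 bases after each annotated start. All 9 genes matched, with 13 start sites. The κB motif, the 10-base site that NF-κB binds, was searched on both strands and was found at 4 of the 13 start sites, those of 4 genes. Among all 32851 RefSeq promoters of this length 8.46% held it, and 9.55% of 27025 genes did so at 1 start site or more. The 4 are shown because they are the promoters of the set with a match, and Tnfaip2 among them is the gene whose heme effect differed between genotypes. Capitals mark bases of a κB match, and each sequence runs 5′ to 3′ on the strand of its gene.
Tnfaip3, first start site, chr10:19015361-19015660, minus strand: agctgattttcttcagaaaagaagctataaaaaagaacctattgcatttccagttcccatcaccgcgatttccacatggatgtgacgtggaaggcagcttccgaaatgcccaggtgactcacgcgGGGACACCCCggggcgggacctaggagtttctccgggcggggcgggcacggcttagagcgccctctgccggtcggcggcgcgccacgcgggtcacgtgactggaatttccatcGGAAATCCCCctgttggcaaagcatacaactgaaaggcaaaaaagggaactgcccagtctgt
Tnip1, chr11:54962891-54963190, minus strand: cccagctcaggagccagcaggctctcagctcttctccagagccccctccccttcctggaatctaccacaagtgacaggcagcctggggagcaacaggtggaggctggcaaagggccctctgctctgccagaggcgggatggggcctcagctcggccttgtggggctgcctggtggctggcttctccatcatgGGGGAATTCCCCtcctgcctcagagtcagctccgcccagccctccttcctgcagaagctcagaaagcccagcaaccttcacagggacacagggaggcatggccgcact
Nfkbid, second of 3 start sites, chr7:30422156-30422455, plus strand: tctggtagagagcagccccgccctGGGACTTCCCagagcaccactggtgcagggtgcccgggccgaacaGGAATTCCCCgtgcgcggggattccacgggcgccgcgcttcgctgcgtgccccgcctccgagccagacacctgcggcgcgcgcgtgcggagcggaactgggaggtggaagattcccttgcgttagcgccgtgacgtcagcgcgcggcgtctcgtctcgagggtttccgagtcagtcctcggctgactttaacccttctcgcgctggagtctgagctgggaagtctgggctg
Tnfaip2, chr12:111442411-111442710, plus strand: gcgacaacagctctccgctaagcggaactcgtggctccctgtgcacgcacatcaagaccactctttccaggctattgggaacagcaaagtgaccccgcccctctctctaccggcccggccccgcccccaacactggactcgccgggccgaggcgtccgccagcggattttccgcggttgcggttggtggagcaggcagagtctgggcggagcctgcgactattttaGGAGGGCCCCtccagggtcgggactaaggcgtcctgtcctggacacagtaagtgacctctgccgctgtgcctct
Counted from the start site, the first bases of the matches lie at -125 and -12 in Tnfaip3, at -226 and -181 in Nfkbid and at -24 in Tnfaip2. In Tnip1 there are 3 matches that overlap each other, with first bases at -58, -57 and -56. The core of the antioxidant response element, TGACNNNGC on either strand, was found in 1 of the 9 genes, Tnfaip2, as TGACCCCGC with its first base at -161 and no overlap with the κB match. Of all promoters 12.4% held that core, as did 14.0% of 27025 genes by at least 1 start site. A match of letters describes the sequence and does not show binding.

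The arrays differed in the share of features listed at exactly 0. On the 4 LPS-treated arrays lettered a, 1 in each LPS-treated group, 44.3% to 48.8% of features were so listed, against 17.9% to 41.3% on the other 11 LPS-treated arrays and 18.2% to 20.9% under albumin. No member was listed at 0 on any array. In Nrf2-/- cells under heme and LPS the SD of log2 ratios was 0.77 on array b, 1.097 on d and 1.15 on e. The mean of the 9 genes was 2.78, 3.78 and 3.77 there. Nrf2+/+ cells under heme and LPS had SDs of 0.88 to 0.94, and array c with the smallest had the highest mean (2.73). Letters d and e occur only in Nrf2-/- groups. Beyond quantile normalization, the part of this spread in the differences between genotypes was not tested. Correlation between arrays of a group over all genes lay between 0.55 and 0.89. Nfe2l2 was listed at exactly 0 on all 9 Nrf2-/- arrays, while the Nrf2+/+ arrays held values from -0.59 to 1.001. A value of exactly 0 is not a measured absence, so it does not check the deletion. The macrophage marker list (8 genes) had array means of -1.09 to -0.69 in Nrf2+/+ cells under heme and LPS, against 0.27 to 0.41 under LPS, and -0.37 to -0.34 under albumin. These means were -0.59 to 0.10 under heme and LPS and 0.03 to 0.56 under LPS in Nrf2-/- cells. None of the 8 was at 0 on all arrays of a group. In Nrf2+/+ cells the difference between heme and LPS and LPS leaned on 2 of them, Fcgr1 (-5.38) and Mertk (-3.08). The others ran from -0.72 (Spi1) to 0.55 (Csf1r). The neutrophil list (8 genes) had array means of 0.60 to 1.30 under heme and LPS and 0.18 to 0.88 under LPS in Nrf2+/+ cells, and of 0.54 to 1.04 and 0.13 to 0.70 in Nrf2-/- cells. Being ratios to a macrophage reference, these values cannot show how much of each cell type was present. In such bulk samples fewer cells of a type and less RNA per cell cannot be told apart.

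LPS raised 8 of the 9 genes in Nrf2+/+ macrophages, with limma's moderated test over all arrays and Benjamini-Hochberg adjustment over all genes, called at an adjusted p under 0.05. Of all 22485 genes 12.3% were called higher in this comparison. The rises ran from 4.99-fold for Tnip1 to 50.0-fold for Tnfaip3. Nfkbid was not called (log2 difference 0.50 ± 0.34 SE, adjusted p = 0.315). In all 9 genes the 3 LPS arrays lay above the 3 albumin arrays, which held for 19.9% of all genes. The median difference of the 9 genes was 3.06, beside 0 over all genes. The calls of the 8 genes held without the arrays lettered a. Quantile normalization kept the calls too. All 8 rises but that of Irak3 (3.26 on the log2 scale) were smaller under it, as for Tnfaip3 (4.80), Zc3h12a (2.86) and Traf1 (3.80).

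Heme before LPS lowered 2 of the 9 genes in Nrf2+/+ cells, Birc3 and Tnfaip2, and raised none. Of all genes 6.35% were called lower and 8.34% higher. In both genes every heme array lay below every LPS array, which held for 11.4% of all genes. The other 7 genes did not pass the test, and their differences ran from -0.80 for Tnfaip3 to 0.03 for Tnip1. Under quantile normalization Tnfaip3, Irak3 and Traf1 lay above 0 in place of below it. Against albumin, heme and LPS together raised 8 of the 9, all but Nfkbid (12.9% of all genes were called higher), from 3.99-fold for Tnfaip2 to 28.7-fold for Tnfaip3. Without the Nrf2+/+ heme array lettered a, the rise of Tnfaip3 was 4.20 in place of 4.84 on the log2 scale. The comparisons of LPS with albumin and of heme and LPS with albumin share the 3 albumin arrays.

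Heme before LPS changed none of the 9 genes in Nrf2-/- cells by this test, while 6.77% of all genes were called. At an unadjusted p under 0.05 there were 2 of 9, Birc3 and Nfkbid, beside 17.3% of all genes, and limma with array weights called 0. The difference between the heme effects of the 2 genotypes was called for 1 of the 9, Tnfaip2, beside 0.947% of all genes and 0.240% in the same direction. All 9 differences of effect were above 0, Tnip1 and Nfkbid among them, as were 10937 of 22485 genes. So were those of 5 of 5 other IκB genes and 13 of 16 genes of TRAF, IAP and TNF receptor signalling. The other lists were more even. Above 0 were 14 of 28 mRNA decay factors, 7 of 13 A20 partners and 7 of 12 mRNAs known as targets of decay factors. The same held for 5 of 8 genes related to Tnfaip2 and 13 of 20 of the IRAK list. The 9 genes were read on the same arrays, so they are not 9 independent results. Under heme and LPS, Nrf2-/- cells had more Tnfaip2 than Nrf2+/+ cells, the 1 of 9 genes called, beside 5.29% of all genes and 2.13% called higher. Under LPS alone none of the 9 was called between genotypes, and 1 gene (0.00445%) was called in all. In that comparison Tnfaip2 alone of the 9 had an unadjusted p under 0.05, beside 2.48% of all genes, and limma with array weights called 0 of the 9.

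**Figure D1:**
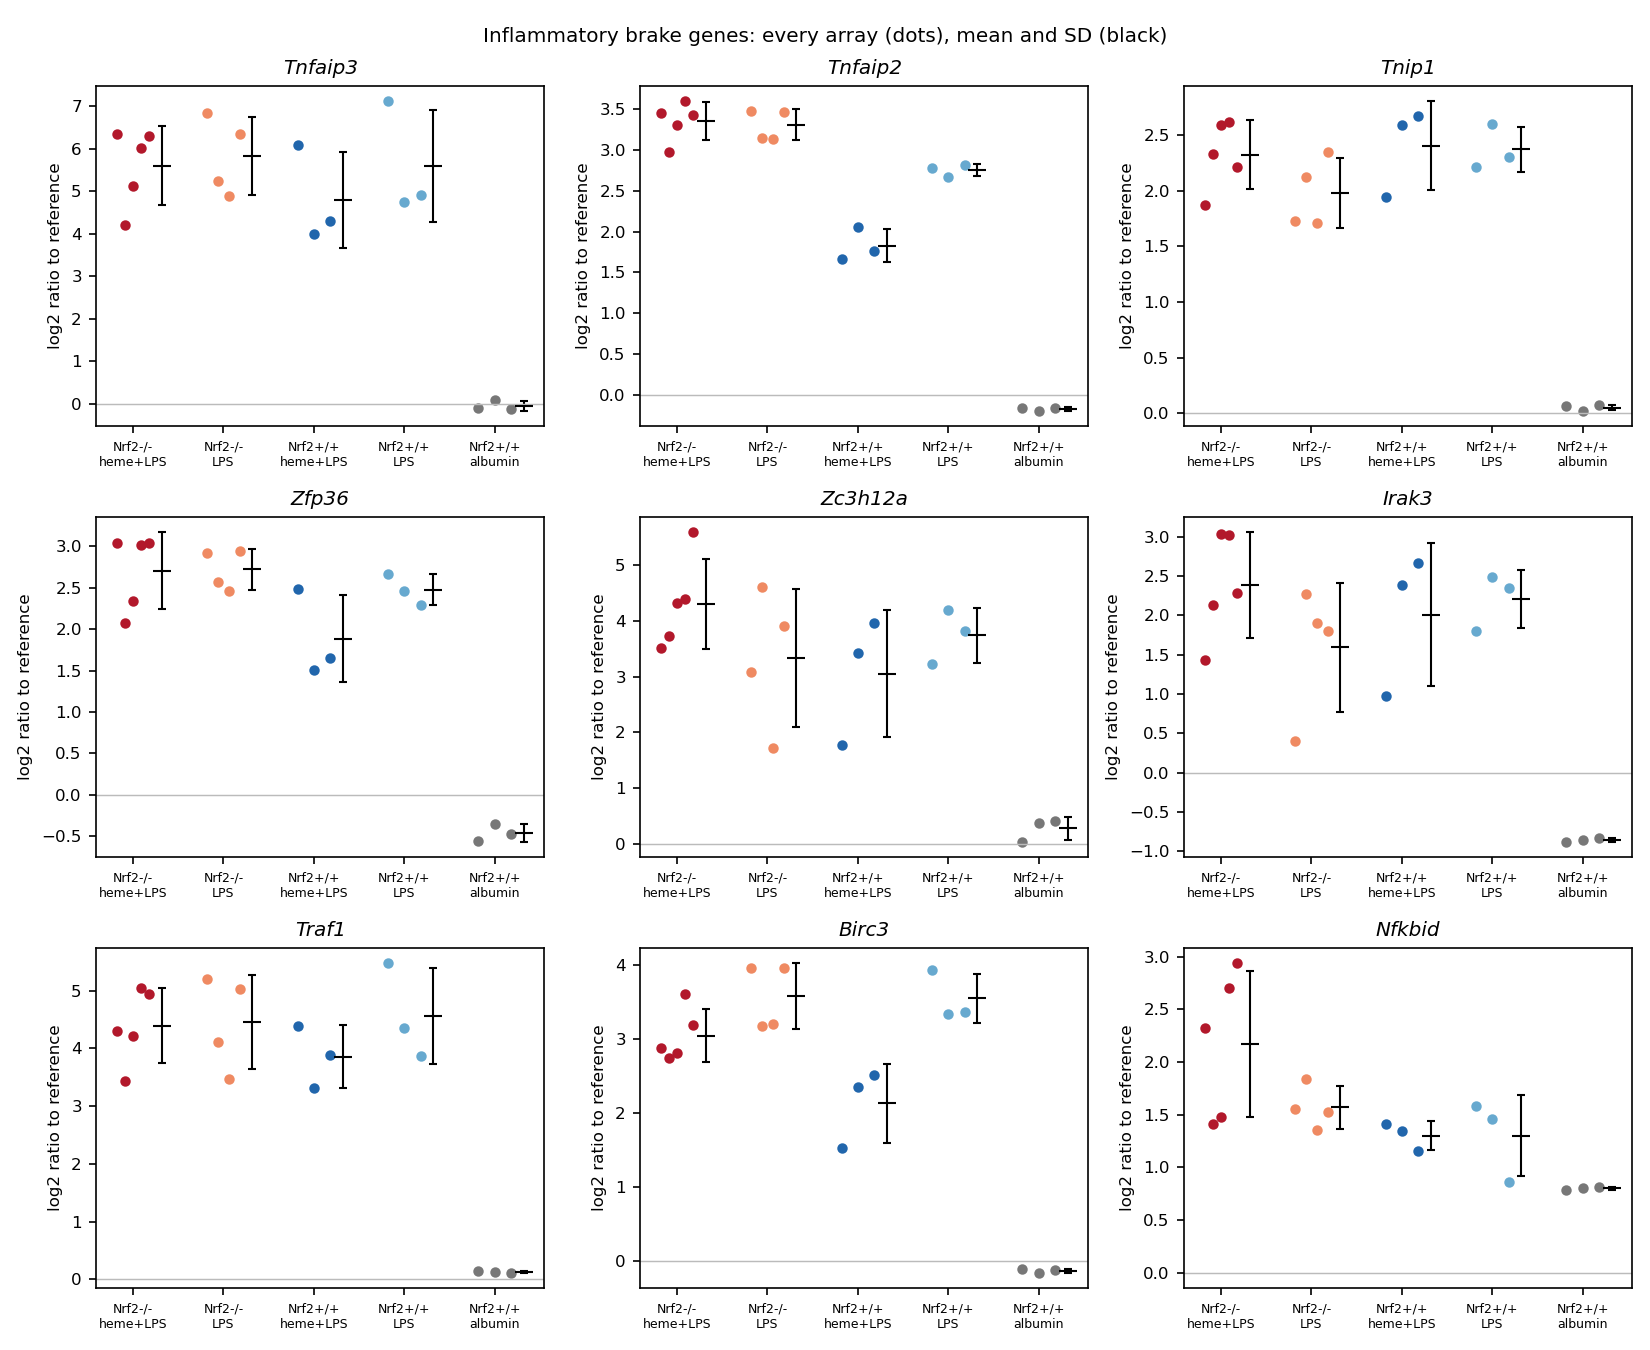
Log2 ratio to the reference of the 9 genes, 1 panel each, for every array (dots) with the group mean and SD (black), from Nrf2-/- cells at the left to Nrf2+/+ cells under albumin at the right; the vertical scales differ between panels. All LPS-treated arrays lie above the albumin arrays in every panel, and Tnfaip2 and Birc3 are lower in Nrf2+/+ cells under heme and LPS.

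Tnfaip3, the A20 gene, had ratios of 6.36, 4.20, 5.13, 6.02 and 6.30 in Nrf2-/- cells under heme and LPS and 6.86, 5.24, 4.89 and 6.35 under LPS. In Nrf2+/+ cells it had 6.09, 4.00 and 4.29 under heme and LPS, against 7.12, 4.75 and 4.91 under LPS and -0.11, 0.09 and -0.12 under albumin. The LPS-treated groups overlapped throughout, and within each the array lettered a was the highest. LPS raised it by 5.64 ± 0.76 over albumin (SE, adjusted p = 6.35e-05, higher in 3 of 3 arrays). Without the arrays lettered a the rise was 4.88. Heme moved it by -0.80 ± 0.76 in Nrf2+/+ cells (adjusted p = 0.653), with a 95% interval of -2.42 to 0.82, which leaves room for a large fall or a rise. The difference in Nrf2-/- cells was -0.23 ± 0.62 (adjusted p = 0.963).

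Tnip1, the partner of A20, had 1.87, 2.33, 2.59, 2.62 and 2.21 in Nrf2-/- cells under heme and LPS and 1.72, 2.12, 1.71 and 2.35 under LPS. Nrf2+/+ cells had 1.95, 2.59 and 2.67 under heme and LPS, 2.21, 2.60 and 2.31 under LPS, and 0.06, 0.02 and 0.07 under albumin. All LPS-treated groups overlapped and all were above albumin. The rise under LPS was 2.32 ± 0.23 (adjusted p = 4.19e-06). The heme effect in Nrf2+/+ cells was 0.03 ± 0.23 (95% interval -0.46 to 0.52), and it was 0.35 ± 0.19 in Nrf2-/- cells (adjusted p = 0.391). Its heme effect was thus bounded more tightly than that of Tnfaip3.

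Zfp36, the tristetraprolin gene and the first of the mRNA decay factors, had 3.04, 2.07, 2.34, 3.02 and 3.05 in Nrf2-/- cells under heme and LPS and 2.91, 2.57, 2.46 and 2.94 under LPS. Nrf2+/+ cells had 2.49, 1.51 and 1.65 under heme and LPS, 2.67, 2.46 and 2.30 under LPS, and -0.56, -0.35 and -0.48 under albumin. In Nrf2+/+ cells 2 of the 3 heme arrays lay below all LPS arrays and the other, lettered a, among them. LPS raised it by 2.94 ± 0.28 (adjusted p = 3.66e-06). The heme effect of -0.59 ± 0.28 in Nrf2+/+ cells missed the threshold (adjusted p = 0.234), but passed it without that array (-0.89, adjusted p = 0.0481), and with array weights (-0.74, adjusted p = 0.0104). Nrf2-/- cells under heme and LPS averaged 2.70 ± 0.47, against 1.88 ± 0.53 in Nrf2+/+ cells (SD, n = 5 and 3, limma adjusted p = 0.0873). That difference of 0.82 passed without the Nrf2-/- heme array lettered b (0.98, adjusted p = 0.0221) or the Nrf2+/+ heme array lettered a (1.12, adjusted p = 0.0185).

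Zc3h12a, encoding regnase-1, which cleaves stem loops of cytokine mRNAs, varied more between arrays of a group than Zfp36. Its ratios were 3.51, 3.72, 4.32, 4.39 and 5.59 in Nrf2-/- cells under heme and LPS and 3.08, 4.60, 1.72 and 3.91 under LPS. Nrf2+/+ cells had 1.77, 3.41 and 3.96 under heme and LPS, 3.22, 4.20 and 3.81 under LPS, and 0.03, 0.38 and 0.41 under albumin. The LPS-treated groups overlapped. LPS raised it by 3.47 ± 0.70 (adjusted p = 0.00172). The heme effect was -0.70 ± 0.70 in Nrf2+/+ cells (95% interval -2.20 to 0.81) and 0.98 ± 0.58 in Nrf2-/- cells (-0.26 to 2.21). The difference of these effects, 1.67 ± 0.91, did not pass (adjusted p = 0.745).

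Irak3, the brake nearest the receptor, had 1.44, 2.14, 3.04, 3.02 and 2.28 in Nrf2-/- cells under heme and LPS and 0.41, 2.27, 1.90 and 1.79 under LPS. Nrf2+/+ cells had 0.97, 2.39 and 2.67 under heme and LPS, 1.80, 2.49 and 2.34 under LPS, and -0.88, -0.85 and -0.83 under albumin. Under albumin it lay below the reference on all 3 arrays, and in each LPS-treated group the array lettered a was the lowest, the reverse of Tnfaip3. LPS raised it by 3.06 ± 0.52 (adjusted p = 0.000457), and by 3.27 ± 0.27 without the arrays lettered a. Its heme effect was -0.20 ± 0.52 in Nrf2+/+ cells and 0.79 ± 0.43 in Nrf2-/- cells (adjusted p = 0.953 and 0.395). Without the arrays lettered a, these effects were 0.11 and 0.63, and neither passed.

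**Figure D2:**
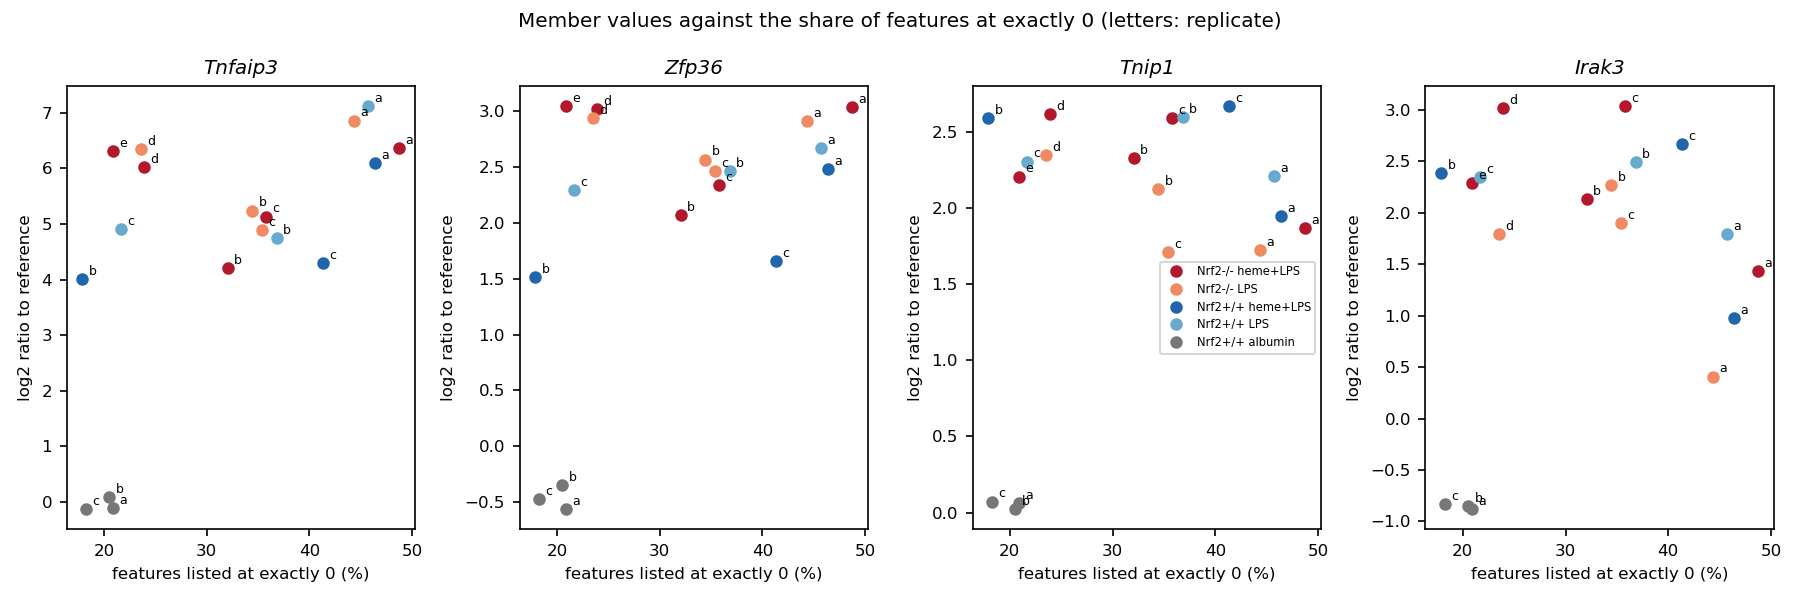
Log2 ratio to the reference of Tnfaip3, Zfp36, Tnip1 and Irak3 (vertical) against the percent of features listed at exactly 0 on the same array (horizontal), with colours for groups and letters for replicates. The 4 LPS-treated arrays lettered a sit at the right, at 44.3% to 48.8%, where Tnfaip3 is highest and Irak3 lowest of each group. Zfp36 is highest there in 2 of the 4 groups and Tnip1 lowest in 3 of 4. Tnfaip3 is also high on some arrays with few zeros, as on Nrf2-/- heme array e (6.30 at 20.9%).

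Nfkbid, the nuclear IκB gene, had 2.32, 1.42, 1.48, 2.70 and 2.94 in Nrf2-/- cells under heme and LPS and 1.55, 1.84, 1.36 and 1.53 under LPS. Nrf2+/+ cells had 1.41, 1.34 and 1.15 under heme and LPS, 1.58, 1.46 and 0.86 under LPS, and 0.79, 0.81 and 0.81 under albumin. Under albumin it lay above the reference on all 3 arrays, and the Nrf2-/- heme arrays fell into 3 high and 2 low ones. The same 2 arrays, lettered b and c, were the lowest of their group for Zfp36, Tnfaip3, Traf1, Birc3 and Tnfaip2. This did not hold for Tnip1, Zc3h12a and Irak3. Heme moved Nfkbid by 0.60 ± 0.28 in Nrf2-/- cells (adjusted p = 0.283) and by 0.00 ± 0.34 in Nrf2+/+ cells. Quantile normalization brought the first of these past the threshold (0.71, adjusted p = 0.0289) and turned the LPS effect to -0.08. Nrf2-/- cells under heme and LPS averaged 2.17 ± 0.70, against 1.30 ± 0.13 in Nrf2+/+ cells (SD, n = 5 and 3), with no overlap of arrays but an adjusted p of 0.134 in limma. The arrays barely parted, since the lowest Nrf2-/- value was 1.415 and the highest Nrf2+/+ value 1.410.

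Among the TNF receptor adaptors, Traf1 had 4.31, 3.44, 4.22, 5.05 and 4.95 in Nrf2-/- cells under heme and LPS and 5.21, 4.11, 3.47 and 5.03 under LPS. Nrf2+/+ cells had 4.39, 3.31 and 3.89 under heme and LPS, 5.47, 4.36 and 3.86 under LPS, and 0.14, 0.13 and 0.11 under albumin. The LPS-treated groups overlapped. LPS raised it by 4.44 ± 0.52, or 21.7-fold (adjusted p = 1.85e-05). The heme effects were -0.70 ± 0.52 in Nrf2+/+ cells (95% interval -1.81 to 0.40) and -0.06 ± 0.42 in Nrf2-/- cells, neither past the threshold.

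Birc3, the cIAP2 gene, had 2.88, 2.74, 2.81, 3.603 and 3.19 in Nrf2-/- cells under heme and LPS and 3.96, 3.18, 3.21 and 3.96 under LPS. Nrf2+/+ cells had 1.52, 2.35 and 2.52 under heme and LPS, 3.93, 3.34 and 3.37 under LPS, and -0.11, -0.17 and -0.13 under albumin. The arrays under heme and LPS lay below those under LPS in Nrf2+/+ cells and overlapped with them in Nrf2-/- cells. LPS raised Birc3 by 3.68 ± 0.30, or 12.8-fold (adjusted p = 7.80e-07). With heme before LPS it was lower in Nrf2+/+ cells, at 2.13 ± 0.53, against 3.55 ± 0.34 under LPS (SD, n = 3 each), a difference of -1.42 ± 0.30 (SE, limma adjusted p = 0.00472, lower in 3 of 3 arrays). The difference in Nrf2-/- cells was -0.53 ± 0.25 (adjusted p = 0.287), with a 95% interval of -1.06 to -0.0011. The difference of the heme effects was 0.89 ± 0.39 (unadjusted p = 0.0395, adjusted p = 0.565), so the fall is not shown to depend on genotype. The call in Nrf2+/+ cells was lost without the arrays lettered a (-0.92, adjusted p = 0.0807) and in a fit of the 2 compared groups (adjusted p = 0.0925), and the fall was smaller under quantile normalization (-0.74, adjusted p = 0.0428). Nrf2-/- cells under heme and LPS lay 0.92 ± 0.27 above Nrf2+/+ cells with no overlap of arrays, at an adjusted p of 0.0685. In that comparison 3 of the 9 genes, Birc3, Nfkbid and Tnfaip2, were higher without overlap, beside 3.23% of all genes.

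**Figure D3:**
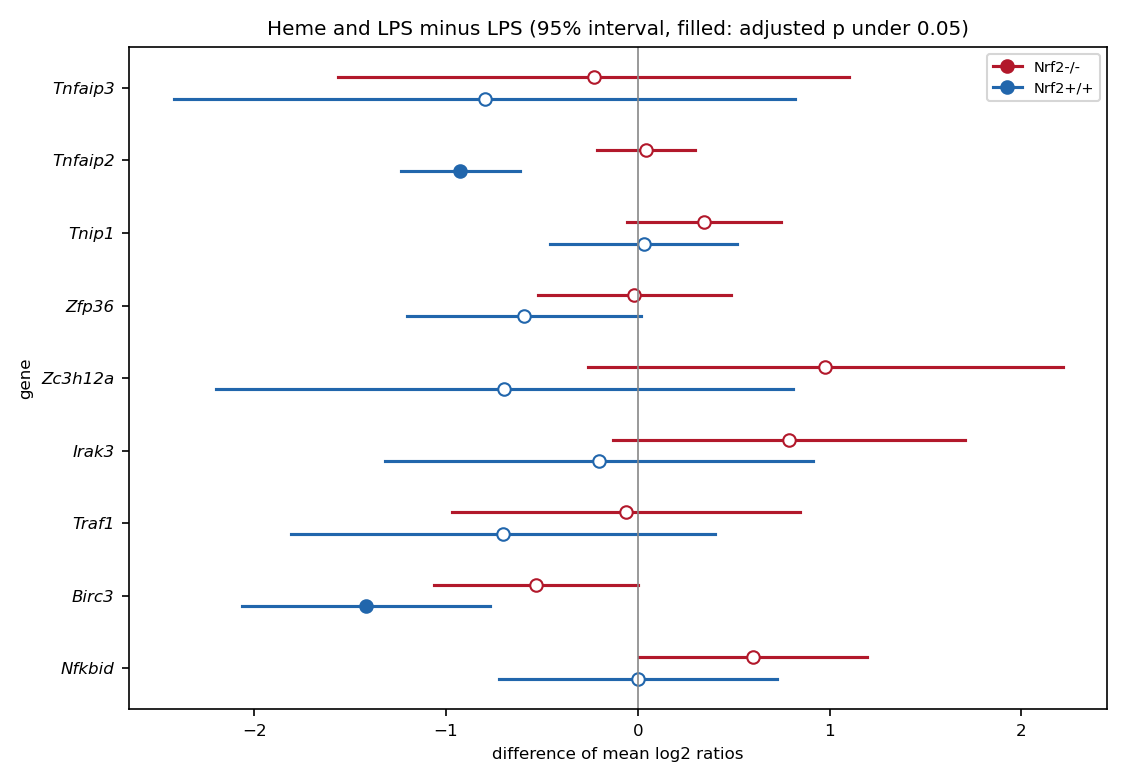
Difference of mean log2 ratios, heme and LPS minus LPS (horizontal), with its 95% interval for the 9 genes in Nrf2-/- (red) and Nrf2+/+ cells (blue); filled symbols passed an adjusted p of 0.05. Tnfaip2 and Birc3 passed in Nrf2+/+ cells and no gene passed in Nrf2-/- cells.

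Tnfaip2, the exocyst relative, had the smallest standard error of the 9 genes. Its ratios were 3.45, 2.98, 3.30, 3.59 and 3.43 in Nrf2-/- cells under heme and LPS and 3.48, 3.15, 3.13 and 3.47 under LPS. Nrf2+/+ cells had 1.67, 2.05 and 1.76 under heme and LPS, 2.78, 2.67 and 2.81 under LPS, and -0.16, -0.19 and -0.16 under albumin. The 2 Nrf2-/- groups overlapped, and both lay above the Nrf2+/+ arrays under LPS, which lay above those under heme and LPS. LPS raised it by 2.92 ± 0.15, or 7.58-fold (adjusted p = 1.35e-08).

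Heme lowered Tnfaip2 in Nrf2+/+ cells to 1.83 ± 0.20, against 2.75 ± 0.07 under LPS (SD, n = 3 each), a difference of -0.93 ± 0.15 (SE, limma adjusted p = 0.00049, lower in 3 of 3 arrays). Tnfaip2 averaged 3.35 ± 0.23 in Nrf2-/- cells under heme and LPS and 3.31 ± 0.19 under LPS (SD, n = 5 and 4). That difference, 0.04 ± 0.12, had a 95% interval of -0.21 to 0.30, which does not reach the fall seen in Nrf2+/+ cells. The 2 heme effects differed by 0.97 ± 0.19 (limma adjusted p = 0.0231). This call was narrow: adjusted p was 0.0551 with zeros set to missing, 0.0667 in a fit of the 4 compared groups and 0.121 without the arrays lettered a, at differences of 0.91 to 0.97. It was also lost under quantile normalization (0.90, adjusted p = 0.0883), under which the fall in Nrf2+/+ cells was -0.45 (adjusted p = 0.120), and without any of 5 single arrays: Nrf2+/+ heme c (0.94), Nrf2+/+ LPS a (0.96) and c (0.94), and Nrf2-/- LPS b (0.92) and c (0.91). Under heme and LPS the genotypes differed by 1.52 ± 0.13, or 2.88-fold, higher in Nrf2-/- cells (adjusted p = 1.00e-05). Under LPS alone the difference was 0.56 ± 0.14 with no overlap of arrays (beside 1.55% of all genes), an unadjusted p of 0.00109 and an adjusted p of 1. Both of its features gave the same picture, with heme effects of -1.06 and -0.79 in Nrf2+/+ cells.

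Cell type markers were read in the same comparisons of heme and LPS with LPS. Of the 8 macrophage markers 2 were called lower in Nrf2+/+ cells under heme and LPS than under LPS, Fcgr1 (-5.38 ± 0.76, adjusted p = 0.000202) and Mertk (-3.08 ± 0.80, adjusted p = 0.0168). The other macrophage markers were not called and ran from -0.72 for Spi1 to 0.55 for Csf1r. Of the 8 neutrophil markers 2 were called higher, S100a8 (2.05 ± 0.49) and Elane (1.08 ± 0.23). In that list 5 differences lay above 0 and 3 below, with S100a9 at 0.22 and Ltf at -0.27. Of the same lists in Nrf2-/- cells, 1 of 8 macrophage markers was called lower, Fcgr1 again, and 1 of 8 neutrophil markers higher, Elane. Their part in the falls of Birc3 and Tnfaip2 was not tested.

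**Figure D4:**
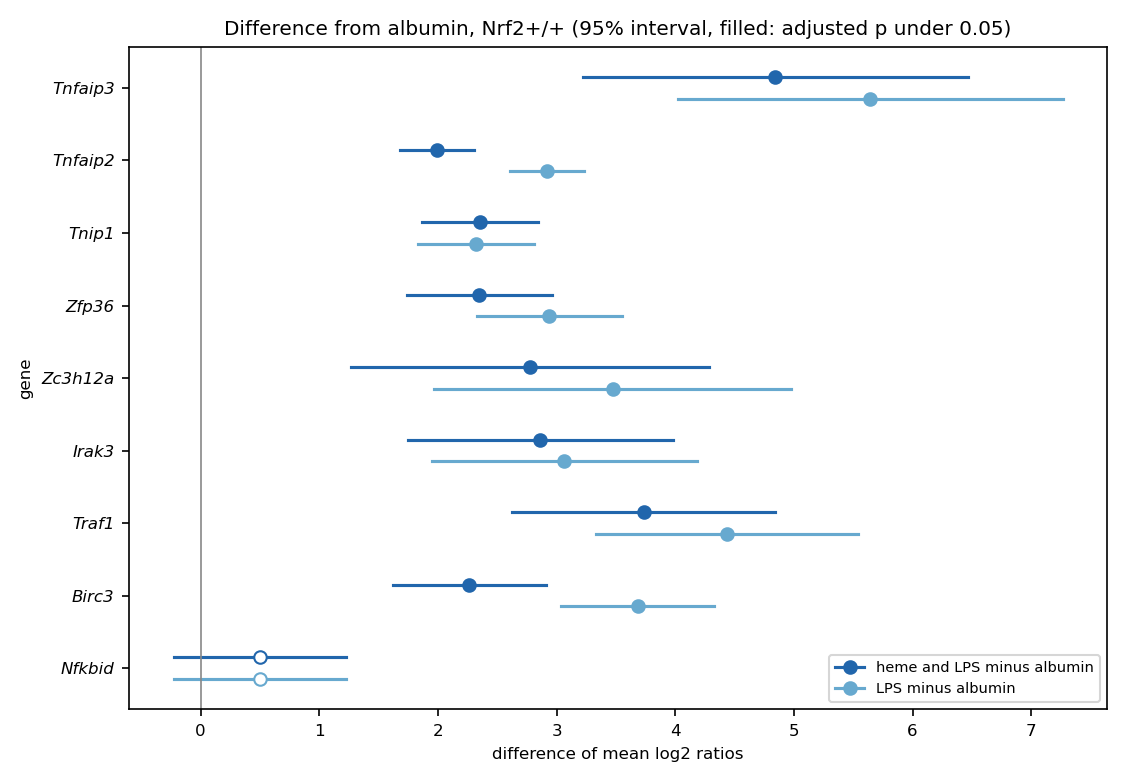
Difference of mean log2 ratios from albumin in Nrf2+/+ cells (horizontal) with its 95% interval for the 9 genes, for heme and LPS (dark) and LPS (light); filled symbols passed an adjusted p of 0.05. All genes but Nfkbid passed in both, and the intervals of Birc3 and of Tnfaip2 do not overlap between the 2 treatments.

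Other genes of these pathways were counted in 7 lists. The counts stand beside shares over all genes of 12.3% called higher and 16.3% lower under LPS, 8.34% higher and 6.35% lower for heme before LPS in Nrf2+/+ cells, and 4.10% higher and 2.67% lower for heme before LPS in Nrf2-/- cells. Of 13 measured A20 and linear ubiquitin partners, LPS raised 7 and lowered 2 in Nrf2+/+ cells. Usp18, a protease that removes ISG15, rose by 4.27 ± 0.87, the A20-binding ABIN3 gene Tnip3 by 4.17 ± 0.96 and Rnf31, the catalytic subunit of the linear ubiquitin ligase, by 2.09 ± 0.32. Heme before LPS raised 2 of the 13 and lowered 3. Usp18 (-3.88 ± 0.87, adjusted p = 0.00663) and Rnf31 (-1.77 ± 0.32, adjusted p = 0.00163) fell, and Otulin, which cuts linear chains, rose by 1.29 ± 0.28 (adjusted p = 0.00546). Heme raised 1 and lowered 1 of the list in Nrf2-/- cells, the second being Rbck1, a further subunit of that ligase (-0.29 ± 0.06, adjusted p = 0.0119). The median difference of the list was near that of all genes in the genotype interaction (0.12, beside 0), with 0 of 13 called.

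Of 16 measured genes of TRAF, IAP and TNF receptor signalling, LPS raised 10 and lowered 1. Cflar, an inhibitor of caspase-8, rose by 4.44 ± 0.21 and the receptor gene Cd40 by 4.13 ± 0.44. Heme before LPS lowered 9 and raised 3 in Nrf2+/+ cells. The largest falls were those of Tifa (-2.72 ± 0.33, adjusted p = 6.58e-05), an adaptor that binds TRAF6, Tnfrsf9 (-1.76 ± 0.48), the receptor 4-1BB, and Cd40 (-1.75 ± 0.44). Heme lowered 4 and raised 0 of them in Nrf2-/- cells. Birc2, the cIAP1 gene and closest relative of Birc3, fell by 1.16 on the log2 scale there (adjusted p = 0.000939) and by 1.25 in Nrf2+/+ cells (adjusted p = 0.000753), and its 2 effects differed by 0.09 ± 0.27. The genotype interaction was called for 2 of the 16, Traf3ip2 (1.43 ± 0.29, adjusted p = 0.0315), an adaptor of IL-17 receptors, and Traf5 (-1.74 ± 0.36, adjusted p = 0.0328).

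Of 28 mRNA decay factors, LPS raised 8 and lowered 7, beside 12.3% and 16.3% of all genes. N4bp1, a ribonuclease of the regnase kind, rose by 4.27 ± 0.36 and the decapping enzyme gene Dcp2 by 3.58 ± 0.64, while Zfp36l2, a relative of Zfp36, fell by 4.21 on the log2 scale (adjusted p = 2.17e-06). Zfp36 and Zfp36l2 thus moved in opposite directions under LPS. Heme before LPS lowered 4 and raised 3 of the 28 in Nrf2+/+ cells, with Dcp2 at -2.58 ± 0.64, the regnase relative Zc3h12d at -2.43 ± 0.50 and the exonuclease gene Xrn1 at -1.84 ± 0.28. The knockout cells had 2 lowered and 2 raised, with Xrn1 at -1.23 ± 0.23 (adjusted p = 0.00494) and Tob1, which recruits deadenylases, at 1.002 ± 0.220 (adjusted p = 0.0131).

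Of 12 mRNAs known as targets of tristetraprolin or regnase-1, LPS raised 11 and lowered none, in the same cells where both decay factors rose. Ptgs2 (cyclooxygenase-2) rose by 9.10 ± 0.52 and Il12b, a subunit of interleukin-12, by 8.37 ± 0.85. Il6 was listed at 0 on all 3 albumin arrays and had ratios of 10.35 to 11.59 under LPS, so no fold is given. Heme before LPS raised 2 and lowered 2 of the 12 in Nrf2+/+ cells: Il12b (-3.71 ± 0.85, adjusted p = 0.00761) and Il10 (-2.58 ± 0.36) fell, and Cxcl2 (2.69 ± 0.57, adjusted p = 0.00444) was among those that rose. In Nrf2-/- cells 1 rose, Cxcl2 (1.90 ± 0.47), and 1 fell, Il10 (-1.30 ± 0.29). Il12b was 3.99 ± 0.76 higher in Nrf2-/- than in Nrf2+/+ cells under heme and LPS (adjusted p = 0.00569), but its genotype interaction did not pass (3.38, adjusted p = 0.26).

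Of 20 IRAK and Toll-like receptor adaptors and brakes, LPS raised 10 and lowered 6, beside the same shares of all genes. The ubiquitin ligase gene Peli1 rose by 4.52 ± 0.28, the kinase gene Map3k8 by 4.07 ± 0.31 and Irak2 by 2.75 ± 0.24. Heme before LPS lowered 5 and raised 4 in Nrf2+/+ cells, with Map3k8 at -2.07 ± 0.31 (adjusted p = 0.000329) and the adaptor gene Myd88 at -1.39 ± 0.24 (adjusted p = 0.00116). In Nrf2-/- cells 2 rose and 1 fell, with Ticam1, the TRIF gene, at 0.84 ± 0.20 and Tab2, which carries TAK1 to ubiquitin chains, at -0.64 ± 0.14. Map3k8 was 1.76 ± 0.28 higher in Nrf2-/- than in Nrf2+/+ cells under heme and LPS (adjusted p = 0.00132).

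Of 5 other IκB genes LPS raised all 5. Nfkbiz rose by 6.05 ± 0.43, Nfkbia, the gene of IκBα, by 3.85 ± 0.40 and Bcl3 by 2.54 ± 0.56. Heme lowered 1 of the 5 in Nrf2+/+ cells, Nfkbiz (-1.94 ± 0.43, adjusted p = 0.00627), and no call was made in Nrf2-/- cells. Of 8 genes with TNFAIP names or related to Tnfaip2, LPS raised 2 and lowered 1, while heme raised 1 in Nrf2+/+ cells and 2 in Nrf2-/- cells. Exoc3l4, a relative of Tnfaip2, rose by 3.61 ± 0.37, and Tnfaip8l1 fell by 3.34 on the log2 scale (adjusted p = 5.03e-07). Exoc3l4 was 2.13 ± 0.33 higher in Nrf2-/- than in Nrf2+/+ cells under heme and LPS (adjusted p = 0.00122), as Tnfaip2 was, with means of 5.29 ± 0.53 and 3.16 ± 0.32 (SD, n = 5 and 3). The heme effect on Exoc3l4 in Nrf2+/+ cells was -1.02 ± 0.37 (adjusted p = 0.0887). Its genotype interaction did not pass (0.96 ± 0.48, limma adjusted p = 0.687). Under LPS alone Exoc3l4 was 1.17 ± 0.35 higher in Nrf2-/- cells, without a call.

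Between genotypes under heme and LPS, 1 A20 partner was called higher and 1 lower in Nrf2-/- cells, as were 3 and 1 of the TRAF list, 2 and 0 of the decay factors, 3 and 1 of the IRAK list, 2 and 0 of the target mRNAs and 1 and 0 of the genes related to Tnfaip2. Of all genes 2.13% were called higher and 3.16% lower. None of the 5 IκB genes was called. Tifa (2.05 ± 0.30) and Cd40 (1.51 ± 0.39) were higher in Nrf2-/- cells and Traf5 lower (-1.96 ± 0.25). Under LPS alone 0 genes of these 7 lists were called.

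The genes with the most similar pattern were sought by Pearson correlation over the 18 arrays among 13869 genes with at most 4 values of exactly 0. For Tnfaip3 these were Acod1, the itaconate-making enzyme (r = 0.98), Nfkbia (0.98) and Gm5080 (0.98). For Birc3 they were Dram1 (0.99), a regulator of autophagy, Pnp2 (0.98) and Malt1 (0.97), a paracaspase of NF-κB signalling. For Irak3 they were Vps37c, Serpinb2 and Cdc42ep2, each at 0.94, and for Nfkbid Tmem176b (0.87), Scgb1b2 (0.87) and Tram2 (0.85). These values share the step between albumin and LPS and the common reference, and they describe these arrays.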

How the data were processed

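Expression was measured on 18 Agilent arrays with 2 colours, labelled from 500 ng of total RNA per the labels' protocols. The authors deposited log10 ratios, sample over reference, made with Agilent Feature Extraction 10.5.1.1 per the submitters' processing notes. No label gives the log base, which was inferred from how the numbers are written and from their range (-2.15 to 3.59), nor the background and dye correction. Values were multiplied by log2(10), and the features of a symbol were averaged. Of 44397 features 33026 carried 1 symbol and 11371 none, giving 22485 genes, 16347 of them with 1 feature. By gene identifier 32438 features matched the RefSeq table (GRCm38.p6), which changed 0 symbols. No value was missing. Depth does not apply to arrays, and the number of arrays limits the precision.

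One limma 3.58.1 fit (R 4.3.3, lmFit and eBayes) over 5 group means gave 7 comparisons, two-sided, with Benjamini-Hochberg adjustment over all genes. Calls were made below an adjusted p of 0.05. The design text calls the replicates independent and biological. The fit was tested on simulated data with independent noise and a single group shifted at a time. The simulated data held none of the differences between arrays described above, so that test does not cover them. Figures used Python 3.11.15, pandas 2.3.3 and matplotlib 3.10.9. Members, lists and tests were chosen with earlier results of these data known. Named genes were all members, up to 3 called and 2 uncalled genes per list and comparison by size of change, and for 4 members the 3 most correlated genes. Alternatives covered the treatment of zeros, normalization, averaging over features, the arrays in the fit, array weights and a replicate block. Replicate letters are not said to mark a shared animal or day, and the main fit did not pair samples by them. As a check, letters were counted as matching where all same-letter correlations of deviations from the group mean exceeded 0.1. That held for Nrf2-/- against Nrf2+/+ cells under LPS (0.20 to 0.58, 3 pairs) and under heme and LPS (0.23 to 0.53, 3 pairs), and for heme and LPS against LPS in Nrf2-/- cells (0.22 to 0.59, 4 pairs), although there the arrays lettered b and c correlated better across these 2 letters (0.36 and 0.32) than within them (0.23 and 0.22). It did not hold for heme and LPS against LPS in Nrf2+/+ cells (0.01 to 0.48) or against albumin. The list genes Irak4, Traf3, Ripk1 and Ripk2 were not analysed here.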

Additional observations from a re-analysis of the deposited data

Results flagged for a closer look

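The heme effect on Tnfaip2 differed between genotypes by the test of the difference itself, at 0.97 log2 units (0.97 ± 0.19 SE, limma adjusted p = 0.0231). Tnfaip2 fell by 0.93 on the log2 scale in Nrf2+/+ cells and differed by 0.04 in Nrf2-/- cells. Over the 9 alternatives beside leaving out single arrays the adjusted p ran from 0.00219 to 0.121, and the cause of that range was not tested. A rule on the gap between an array and its neighbour, relative to the range of the group, flagged no array. It was applied in 18 checks on the 9 genes in the 2 Nrf2-/- groups, where chance alone gives about 1 in 20. With so few arrays only very wide gaps are flagged. Irak3 at 0.41 in Nrf2-/- cells under LPS, beside 1.79 to 2.27 on the others, was not flagged. The Nrf2+/+ groups were not checked.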

How the results depend on the processing

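Of the differences of the 9 genes recomputed under all alternatives, 1004 kept their direction and their side of the threshold, 12 lost their call, 12 gained one and 52 changed direction, and for these the cause was not tested beyond the smaller number of arrays where arrays were left out. Members called in Nrf2+/+ cells for heme and LPS against LPS numbered 1 in place of 2 under quantile normalization, in a fit of the compared groups alone and without the LPS-treated arrays lettered a. In Nrf2-/- cells the number was 1 in place of 0 under quantile normalization. For the genotype interaction it was 0 in place of 1 with zeros set to missing, under quantile normalization, in a fit of the compared groups and without the arrays lettered a, and 0 to 1 when single arrays were left out. For genotype under heme and LPS it was 2 in place of 1 with features at 0 on most arrays left out (Birc3 gained, adjusted p = 0.0499), with array weights (Zfp36 gained) and without the arrays lettered a (Zfp36 gained), 3 under quantile normalization (Zfp36 and Nfkbid gained), and 1 to 3 when single arrays were left out. Nfkbid was called for heme and LPS against albumin in a fit of those groups alone (0.50, adjusted p = 0.0113).

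Directions turned under quantile normalization for Nfkbid under LPS (-0.0767), for Tnfaip3 (0.19), Irak3 (0.16) and Traf1 (0.0246) in the heme effect of Nrf2+/+ cells, and for Tnfaip3 (0.29), Zfp36 (0.32) and Traf1 (0.29) in that of Nrf2-/- cells. With array weights they turned for Irak3 (0.12) and Nfkbid (-0.14) in Nrf2+/+ cells, for Zfp36 (0.0019) and Traf1 (0.22) in Nrf2-/- cells, and for Birc3 between genotypes under LPS (-0.0061). Without the arrays lettered a they turned for Irak3 in Nrf2+/+ cells (0.11), Traf1 in Nrf2-/- cells (0.21) and Traf1 between genotypes under LPS (0.10). None of these turned differences was called. Leaving out single arrays turned Tnip1 (-0.10 to 0.26), Irak3 (-0.53 to 0.32) and Nfkbid (-0.22 to 0.14) in the heme effect of Nrf2+/+ cells. It turned Tnfaip3 (-0.54 to 0.12), Tnfaip2 (-0.0168 to 0.14), Zfp36 (-0.10 to 0.14) and Traf1 (-0.39 to 0.19) in Nrf2-/- cells, and Tnfaip3 in the interaction (-0.19 to 1.22). Between genotypes it turned Tnfaip3 (-0.18 to 1.001), Zc3h12a (-0.84 to 0.12), Traf1 (-0.46 to 0.35) and Birc3 (-0.10 to 0.22) under LPS, and Tnip1 (-0.31 to 0.0546) and Irak3 (-0.14 to 0.70) under heme and LPS. The replicate block changed 0 of the members' calls, and it turned Birc3 between genotypes under LPS to -0.13. For heme and LPS against LPS, the arrays lettered b and c correlated better with each other's letter than with their own in Nrf2+/+ cells (0.36 and 0.32, against 0.01 and 0.01) and in Nrf2-/- cells (0.36 and 0.32, against 0.23 and 0.22), a hint from the data and not the design.

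Genes called for heme and LPS against LPS in Nrf2+/+ cells numbered 3303, against 1545 in a fit of those groups alone and 5251 with array weights. In Nrf2-/- cells they numbered 1523, against 752 in a fit of those groups and 951 without the LPS array lettered a. For the interaction they numbered 213, against 116 in a fit of those groups, 854 with array weights and 135 to 323 without single arrays. Between genotypes under LPS the count of 1 became 0 in a fit of those groups and with the replicate block, 6 without the arrays lettered a and 1 to 3 without single arrays, and under heme and LPS 1189 became 317 in a fit of those groups and 2070 with array weights. Values close to the background of an array cannot be told from the many features listed at exactly 0, which limits genes of low signal, although no member was among them.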
